A study of Arabidopsis thaliana with 8 samples.

Results

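A set of 10 genes of the METHYL ESTERASE (MES) family of Arabidopsis thaliana were examined in whole rosettes, out of 36796 genes in the deposited count table. They were selected by locus identifier as MES1 (AT2G23620), MES2 (AT2G23600, also named ACL), MES3 (AT2G23610), MES4 (AT2G23580), MES7 (AT2G23560), MES8 (AT2G23590), MES9 (AT4G37150), MES10 (AT3G50440), MES17 (AT3G10870) and MES18 (AT5G58310). The family as listed here has 20 genes, and these 10 were picked from it when the comparison of the genotypes in these same libraries was already known. The differences between genotypes are therefore given as a description of the members and are not used as evidence for them as a group. All 10 identifiers were in the table. MES4 had no count in any library, and the 9 others passed the filter on low counts.

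The libraries came from hta9 hta11 plants, a double mutant in a pair of H2A.Z genes, and from wild-type (WT) plants, both of accession Col-0. HTA9 and HTA11 encode H2A.Z, a variant of histone H2A found in nucleosomes at gene starts, and the question put is which transcripts change in plants mutated in both. There were 4 poly(A) RNA-seq libraries of hta9 hta11 and 4 of WT, each from a pool of 5 plants that were 17 days old, grown in long days and not yet bolting. The labels give neither the kind nor the position of the mutations. Because the tissue was a whole rosette, a larger share of a cell type and more transcript per cell cannot be told apart.

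MES proteins are small alpha/beta-fold hydrolases that remove a methyl group from methyl esters. Methyl salicylate, methyl jasmonate and methyl indole-3-acetate are inactive or mobile forms of salicylic acid, jasmonic acid and auxin, and MES enzymes return the free hormone. Carboxyl methyltransferases of the SABATH family make these esters, so the 2 families act against each other on the same hormones. Plants with several MES genes silenced are known for weaker systemic acquired resistance, in which methyl salicylate is a mobile signal.

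The family signature lies around a serine that acts as the nucleophile of the enzyme, in a turn that is often written G-x-S-x-G in alpha/beta hydrolases. The coding stretch of 39 bases around this codon is shown for all 10 members, since it shows both what the members share and where MES7, MES8 and MES18, which the results turn on, differ. Each is read 5′ to 3′ on the coding strand, which is the minus strand for all 10 genes, from the TAIR10.1 assembly with the RefSeq annotation. Capitals mark the serine codon.
MES7 (chr2:10030013-10030051): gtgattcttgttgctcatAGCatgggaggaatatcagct
MES4 (chr2:10034041-10034079): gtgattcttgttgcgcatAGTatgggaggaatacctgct
MES8 (chr2:10035662-10035700): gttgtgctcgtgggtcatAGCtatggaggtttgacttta
MES2 (chr2:10043369-10043407): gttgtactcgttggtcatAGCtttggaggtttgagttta
MES3 (chr2:10046131-10046169): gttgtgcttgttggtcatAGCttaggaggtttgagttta
MES1 (chr2:10048976-10049014): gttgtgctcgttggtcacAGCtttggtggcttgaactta
MES9 (chr4:17493806-17493844): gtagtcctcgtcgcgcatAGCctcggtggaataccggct
MES10 (chr3:18718091-18718129): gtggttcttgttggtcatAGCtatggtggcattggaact
MES17 (chr3:3402222-3402260): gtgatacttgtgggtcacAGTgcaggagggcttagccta
MES18 (chr5:23575750-23575788): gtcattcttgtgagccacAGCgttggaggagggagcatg

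All 10 members had a serine codon at this place, and all 10 had histidine before it and a pair of glycines after the next residue. The residue before the histidine split them. It was glycine in MES1, MES2, MES3, MES8, MES10 and MES17, alanine in MES4, MES7 and MES9, and serine in MES18. Of the 10 family genes outside the set, MES11, MES13 and MES15 had aspartate in place of the serine, and the pattern was not found in MES19, whose annotated protein has 179 residues. The 3 members with the clearest differences between genotypes, MES7, MES8 and MES18, had 3 different residues at the first place of the turn.

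Of the members, 6 lie in a tandem array on chromosome 2, between 10029060 and 10049413, a span of 20.4 kb that holds 7 protein-coding genes, all of the MES family and all on the minus strand. The span is set by the outermost chosen members. A further family gene on the same strand, MES6 (10026992 to 10028814), lies just beyond its MES7 end and is counted here as a flanking gene. From the end nearest MES6, the order is MES7 (10029060 to 10030443), MES19, MES4 (10033043 to 10034327), MES8 (10034484 to 10036048), MES2 (10041820 to 10043840), MES3 (10044179 to 10046982) and MES1 (10047308 to 10049413). The gaps between genes were 156 to 1121 bases, apart from one of 5771 bases between MES8 and MES2. The dispersed members are MES9 on chromosome 4 (17492871 to 17494279), MES10 on chromosome 3 (18717392 to 18718396), MES17 on chromosome 3 (3400824 to 3402776) and MES18 on chromosome 5 (23574992 to 23576084).

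Protein identity was 41.6% to 76.3% among the 15 pairs of array members, with a median of 60.4%, and 28.5% to 37.6% among the 6 pairs of dispersed members. The closest pairs were MES1 with MES2 at 76.3% and MES4 with MES7 at 76.05%. MES9 was nearer to the array, at 60.1% to MES4, and MES18 was nearest to MES16, at 48.1%. Despite this likeness, no stretch of 50 bases in an exon of any of the 10 members occurred a second time in the nuclear chromosomes on either strand, and the same held for stretches of 100 bases. How reads with several matches were counted is not given in the sources used here.

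Library totals ran from 31611735 to 47467130 counts in hta9 hta11 and from 32027511 to 40635454 counts in WT. HTA9 had 60.6, 14.8, 33.4 and 16.5 CPM (the count scaled to a common library size) in hta9 hta11 libraries 1 to 4, against 86.0 to 103.9 CPM in WT. HTA11 had 26.0, 2.98, 14.1 and 3.60 CPM in the same hta9 hta11 libraries, against 38.5 to 54.1 CPM in WT. All 4 mutant libraries were below all 4 WT libraries for both genes, and libraries 1 and 3 kept the most of these transcripts. HTA9 passed the test (log2 fold change -1.60, SE 0.38; edgeR adjusted p = 0.0457, up to 0.123 over the alternatives). HTA11 did not (-1.93, SE 0.56; edgeR adjusted p = 0.0924, and 0.0103 to 0.206 with 1 library left out), though it passed under 4 of 17 alternatives. HTA8, a further H2A.Z gene, averaged 17.95 ± 3.003 CPM in hta9 hta11 and 16.4 ± 1.83 CPM in WT. The leaf genes RBCS1A, LHCB1.3 and CAB2 were abundant in both genotypes, summing to 32297 to 38197 CPM in hta9 hta11 and 35315 to 43646 CPM in WT. Of 5 root genes, LRX1 had no count. PYK10 made up nearly all of the list's sum of 60.7 to 94.8 CPM in hta9 hta11 and 69.7 to 115.9 CPM in WT. The tissue that the PYK10 counts came from was not tested.

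MES18 had the largest log2 fold change of the 9 measured members and the smallest adjusted p. It is known to cleave methyl indole-3-acetate in vitro. It had 77.5, 117.04, 98.3 and 108.7 CPM in hta9 hta11 libraries 1 to 4, against 35.4, 34.8, 39.4 and 43.2 CPM in WT libraries 1 to 4. The lowest hta9 hta11 library was well above the highest WT library. The means were 100.4 ± 17.1 CPM in hta9 hta11 and 38.2 ± 3.88 CPM in WT (SD, n = 4 each), a log2 fold change of 1.39 (SE 0.13, 95% interval 1.11 to 1.68). In edgeR's quasi-likelihood test over 20214 genes its adjusted p was 0.00126. With any single library left out, it was at most 0.00897.

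Of all genes tested, 3.74% passed the threshold of 0.05 on the adjusted p, 2.49% as higher and 1.25% as lower in hta9 hta11. Of the 9 MES members tested, 3 passed as higher, namely MES18, MES7 and MES8, and none as lower (smallest adjusted p of the others 0.0809, for MES1; 6 of the 9 had an unadjusted p under 0.05). MES18, MES7, MES8 and MES2 had all 4 hta9 hta11 libraries above all 4 WT libraries, a pattern shown by 6.23% of all genes tested, and no member had the opposite pattern, shown by 5.07%. Nothing is read from these counts, since the members were chosen with this contrast known.

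**Figure D1:**
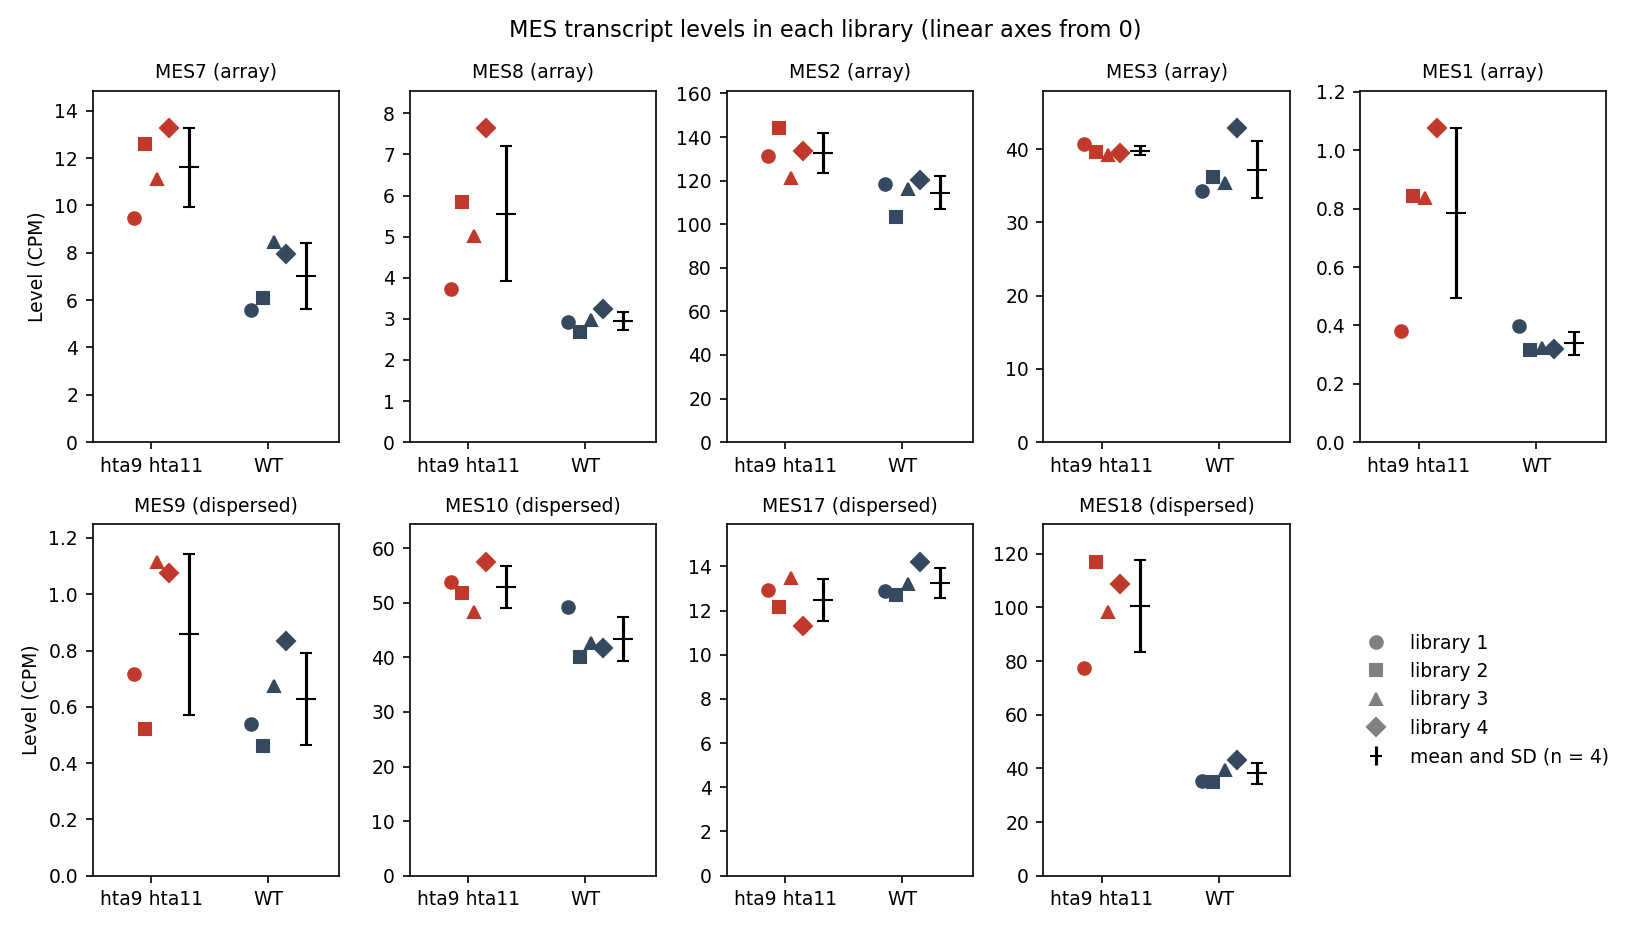
Level of each measured MES member in CPM on linear axes from 0, for hta9 hta11 (left of each panel) and WT (right), with a marker shape for each library and the mean and SD of 4 libraries beside them. In MES18 the hta9 hta11 libraries lie between 77.5 and 117.04 CPM and the WT libraries between 34.8 and 43.2 CPM, while in MES3 and MES17 the genotypes overlap.

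MES18 shares part of its 1004 exonic bases with transcripts of the other strand, and the strand setting of the counting is not given in the sources used here. Its 3′ end shares 93 exonic bases with AT5G58300, and it shares 190 exonic bases with the long noncoding RNA AT5G08825. AT5G58300 had 24.6 ± 3.36 CPM in hta9 hta11 and 23.8 ± 4.03 CPM in WT, a log2 fold change of 0.05 (SE 0.13; edgeR adjusted p = 0.895). AT5G08825 had 31 counts in the 4 hta9 hta11 libraries together and 6 in the 4 WT libraries, or 0.188 ± 0.0785 CPM in hta9 hta11 and 0.043 ± 0.0527 CPM in WT, and was too low to be tested. The part of reads from these transcripts in the MES18 difference was not tested.

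In the array, MES7 and MES8 were the members that passed. MES7, an esterase of methyl salicylate in vitro, had 9.48, 12.6, 11.1 and 13.3 CPM in hta9 hta11 libraries 1 to 4, against 5.56, 6.10, 8.46 and 7.94 CPM in WT libraries 1 to 4. The groups did not overlap, but the lowest hta9 hta11 library and the highest WT library were close. The means were 11.6 ± 1.68 CPM in hta9 hta11 and 7.02 ± 1.40 CPM in WT, a log2 fold change of 0.73 (SE 0.16, 95% interval 0.38 to 1.07; edgeR adjusted p = 0.0321). MES7 did not pass when hta9 hta11 library 2, 3 or 4 or WT library 1 or 2 was left out, and the highest adjusted p, 0.114, came from leaving out mutant library 4.

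MES8 had 3.72, 5.84, 5.02 and 7.64 CPM in hta9 hta11 libraries 1 to 4, against 2.92, 2.69, 2.96 and 3.23 CPM in WT libraries 1 to 4. All mutant libraries were above the WT range, and they spread far more than the WT libraries, with coefficients of variation of 29.6% in hta9 hta11 and 7.62% in WT. The log2 fold change was 0.91 (SE 0.20, 95% interval 0.47 to 1.35; edgeR adjusted p = 0.0351). MES8 passed when hta9 hta11 library 1 was left out and failed when any other single library was, most clearly for mutant library 2 (adjusted p = 0.0984), and it failed in limma-voom (adjusted p = 0.0637). MES7 and MES8 are not the closest copies of each other in the array, since MES7 was nearest to MES4 and MES8 to MES2 (74.2% protein identity).

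MES1, an esterase of methyl salicylate in vitro, was measured at only 18 to 40 counts per library in hta9 hta11 and 10 to 14 in WT. It had 0.380, 0.845, 0.837 and 1.08 CPM in hta9 hta11 libraries 1 to 4, against 0.397, 0.315, 0.323 and 0.3202 CPM in WT libraries 1 to 4. Library 1 of hta9 hta11 lay inside the WT range and the 3 other mutant libraries above it. The log2 fold change of 1.19 (SE 0.33, 95% interval 0.46 to 1.92) did not pass (edgeR adjusted p = 0.0809). Without hta9 hta11 library 1 it was 1.43 (adjusted p = 0.00976), and the alternatives spanned adjusted p-values of 0.00976 to 0.243.

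The pair of array members with the most counts had the smallest log2 fold changes in it. MES2, which acts on methyl salicylate, methyl jasmonate and methyl indole-3-acetate in vitro, had 131.5, 144.1, 121.4 and 133.7 CPM in hta9 hta11 libraries 1 to 4, against 118.3, 103.4, 116.3 and 120.1 CPM in WT libraries 1 to 4. The groups touched without overlapping, and the log2 fold change of 0.21 (SE 0.08, 95% interval 0.04 to 0.39) did not pass (edgeR adjusted p = 0.184). MES3 had 39.3 to 40.7 CPM in hta9 hta11 and 34.3 to 42.9 CPM in WT, so the mutant libraries fell inside the WT range (log2 fold change 0.10, 95% interval -0.08 to 0.28; edgeR adjusted p = 0.596). MES4 had 0 counts in all 8 libraries, which at 3 counts allows up to 0.0633 to 0.0929 CPM in the hta9 hta11 libraries and 0.0726 to 0.0960 CPM in the WT libraries, counting error only.

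**Figure D2:**
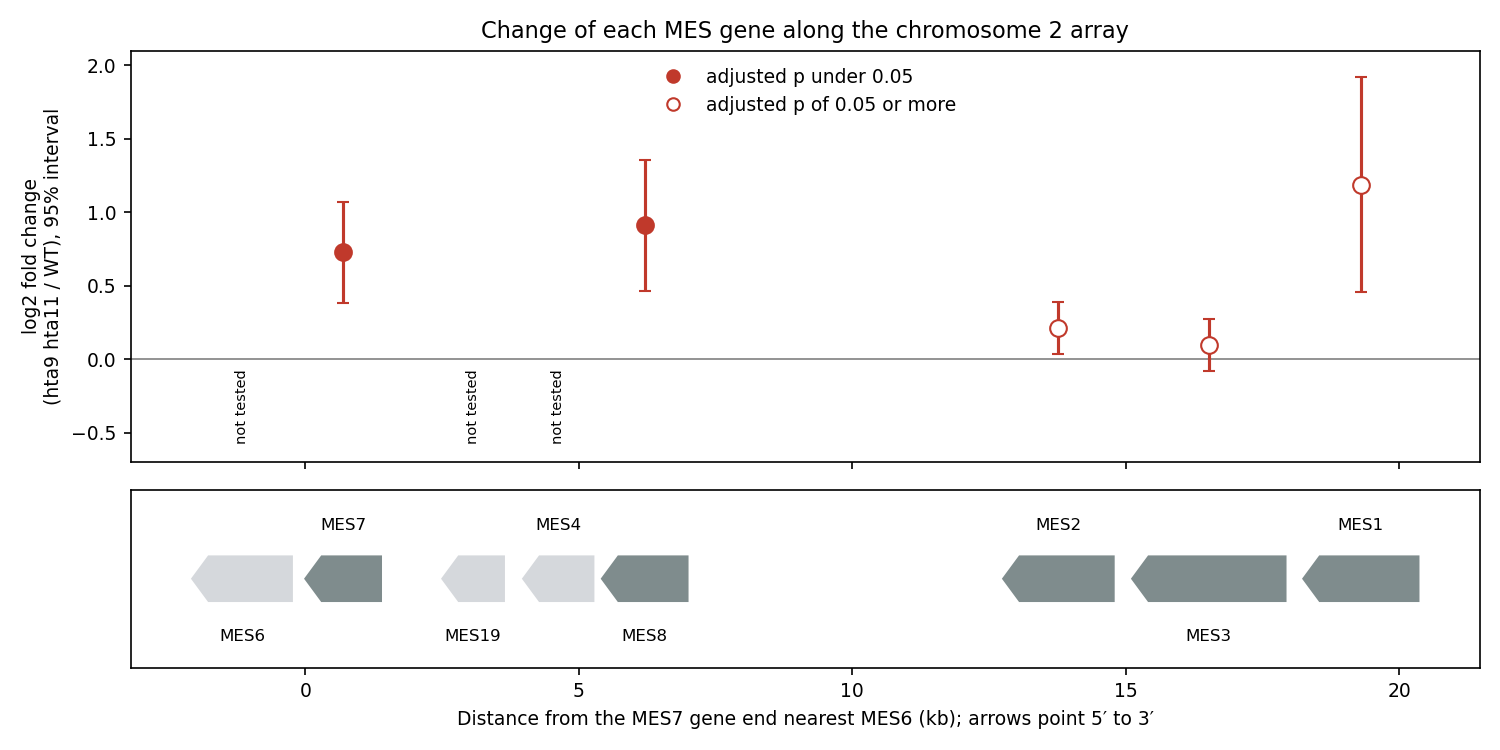
Top, log2 fold change (hta9 hta11 over WT) with its 95% interval for each MES gene along the chromosome 2 array; bottom, gene extents as arrows pointing 5′ to 3′, by distance in kb. MES7 at 0.73 and MES8 at 0.91 passed, MES2 at 0.21 and MES3 at 0.10 lie near 0, MES1 at 1.19 has the widest interval, and MES6, MES19 and MES4 had too few counts to be tested.

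A trend of the log2 fold changes with position along the array was not tested. MES7 and MES8, which passed, lie on one side of the gap of 5771 bases. MES2, MES3 and MES1, which did not pass, lie on the other. The members at both ends, MES7 and MES1, and MES8 in the middle had log2 fold changes of 0.73, 1.19 and 0.91, and the adjacent MES2 and MES3 lay between MES8 and MES1 with 0.21 and 0.10. Summed over the 6 array members, the level was 190.4 ± 11.03 CPM in hta9 hta11 and 162.1 ± 10.6 CPM in WT, and the sum, fitted as a single feature, had a log2 fold change of 0.23 (SE 0.07; edgeR adjusted p = 0.125). MES2 made up 69.6% of the array's counts in hta9 hta11 and 70.7% in WT, while MES7 made up 6.09% and MES8 2.90% in hta9 hta11, against 4.32% and 1.82% in WT. Within the array's span, the noncoding RNA AT2G07925 had no count in hta9 hta11 and at most 0.189 CPM in WT.

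The tested genes around the array had log2 fold changes near 0. Of the 5 nearest protein-coding genes on each side, 5 were tested and none passed in edgeR (0 with an unadjusted p under 0.05), with log2 fold changes of -0.18 to 0.09. MES6, the family gene directly next to MES7, had 14 counts in the 4 hta9 hta11 libraries together and 3 in the 4 WT libraries, and was not tested. On the other side, the nearest gene, sks16, had no count in any library.

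The other dispersed members had smaller log2 fold changes than MES18. MES10, an esterase of methyl jasmonate in vitro, had 53.8, 51.8, 48.4 and 57.5 CPM in hta9 hta11 libraries 1 to 4, against 49.2, 40.1, 42.6 and 41.7 CPM in WT libraries 1 to 4. WT library 1 lay inside the mutant range and the 3 other WT libraries below it. Its log2 fold change of 0.28 (SE 0.09, 95% interval 0.09 to 0.48) did not pass (edgeR adjusted p = 0.107). MES9, which cleaves methyl salicylate, had 0.522 to 1.116 CPM in hta9 hta11 and 0.460 to 0.833 CPM in WT, from 21 to 40 counts in a mutant library and 19 to 26 in a WT library, with overlapping groups (log2 fold change 0.45, 95% interval -0.21 to 1.11; edgeR adjusted p = 0.477).

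MES17, known as an esterase of methyl indole-3-acetate, was the only tested member of the set with a negative log2 fold change, -0.09 (95% interval -0.27 to 0.10; edgeR adjusted p = 0.645). It had 12.9, 12.2, 13.5 and 11.3 CPM in hta9 hta11 libraries 1 to 4, against 12.9, 12.7, 13.2 and 14.2 CPM in WT libraries 1 to 4, and the groups overlapped. MES17 shares 103 exonic bases with AT3G10860 and MES10 shares 18 with AT3G50430 on the opposite strand, and these neighbours had log2 fold changes of -0.13 and -0.16 (edgeR adjusted p = 0.727 and 0.628). AT3G10860 was far above MES17, at 133.7 ± 23.4 CPM in hta9 hta11 and 146.2 ± 28.9 CPM in WT. The part of reads from these neighbours in the MES17 and MES10 counts was not tested.

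The median log2 fold change was 0.73 over the 5 tested array members and 0.37 over the 4 dispersed members, beside -0.0014 over all genes tested. The member with the largest log2 fold change was dispersed, and both groups held a member with overlapping genotypes, MES3 in the array and MES17 among the dispersed. An order of the differences by protein likeness was not tested. MES1 and MES2, the closest pair, had 1.19 and 0.21, and neither passed (edgeR adjusted p = 0.0809 and 0.184). MES9, the dispersed member nearest to the array, had 0.45 with an interval that includes 0.

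**Figure D3:**
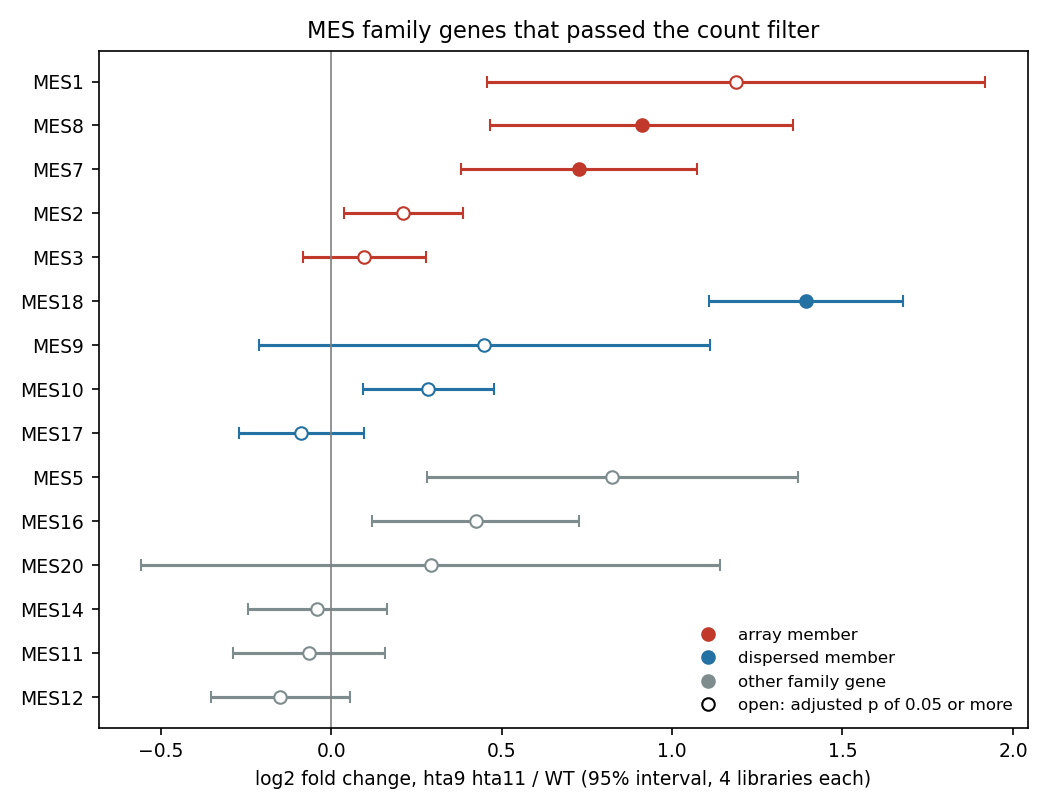
Log2 fold change (hta9 hta11 over WT) with its 95% interval for the 15 MES family genes that passed the count filter, by group; filled points passed the threshold. MES18 at 1.39, MES8 at 0.91 and MES7 at 0.73 are filled, and MES5 at 0.83 and MES16 at 0.42, outside the set, are open.

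Of the 10 other family genes, 6 were tested and none passed in edgeR (2 with an unadjusted p under 0.05). MES5, which acts as a hydroxynitrile lyase, had 8.71 to 16.9 CPM in hta9 hta11 and 5.54 to 10.2 CPM in WT, with overlapping groups and a log2 fold change of 0.83 (SE 0.25; edgeR adjusted p = 0.101). MES16, which demethylates breakdown products of chlorophyll and is the closest relative of MES18, had 14.2, 22.5, 22.1 and 19.2 CPM in hta9 hta11 libraries 1 to 4, against 14.4, 14.7, 13.3 and 15.7 CPM in WT libraries 1 to 4. Its log2 fold change of 0.42 (SE 0.14; edgeR adjusted p = 0.127) passed without hta9 hta11 library 1 (0.55, adjusted p = 0.00927). MES11, MES12 and MES14 were at -0.07, -0.15 and -0.04, and MES20 at 0.29 (SE 0.38). MES13 and MES15 had at most 1 count in a library, and MES19 had none.

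Levels can be compared between genes only per length, as CPM per kilobase of exon. In hta9 hta11 the order was MES18 (99.99 ± 17.02), MES2 (84.01 ± 5.88), MES10 (63.9 ± 4.63), MES3 (24.8 ± 0.391), MES7 (9.52 ± 1.37), MES17 (8.92 ± 0.678), MES8 (5.53 ± 1.63), MES9 (0.775 ± 0.259) and MES1 (0.706 ± 0.262). In WT the order was MES2 (72.5 ± 4.82), MES10 (52.4 ± 4.86), MES18 (38.06 ± 3.87), MES3 (23.2 ± 2.41), MES17 (9.48 ± 0.483), MES7 (5.75 ± 1.15), MES8 (2.94 ± 0.224), MES9 (0.566 ± 0.148) and MES1 (0.305 ± 0.0352). MES18 thus stood above MES2 and MES10 in hta9 hta11 and below both in WT, and MES7 stood above MES17 in hta9 hta11 and below it in WT. The order rests on merged annotated exons, 1004 bases for MES18, 828 for MES10 and 1579 for MES2, the latter from 3 transcripts. Before division by length, MES2 was above MES18 in hta9 hta11 too, at 132.7 against 100.4 CPM. In hta9 hta11 the ranges of MES18 and MES2, of MES7 and MES17, and of MES9 and MES1 overlapped, while in WT no neighbours in the order overlapped.

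**Figure D4:**
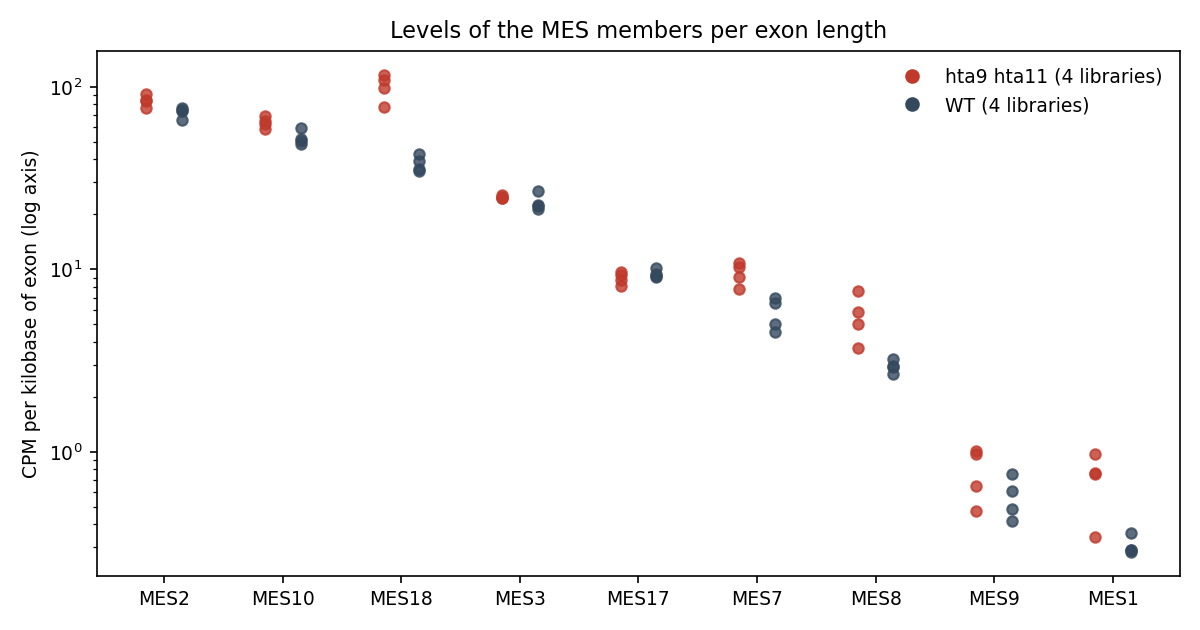
Level of each measured member per kilobase of exon on a log axis, with a point for each of the 4 hta9 hta11 libraries (left) and 4 WT libraries (right). MES18 averages 99.99 CPM per kilobase in hta9 hta11 and 38.06 in WT, whereas MES3 averages 24.8 in hta9 hta11 and 23.2 in WT.

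The hta9 hta11 libraries differed among themselves, and 4 of the 9 measured members shared the same low library. MES18, MES7, MES8 and MES1 had their lowest mutant level in library 1, at 202.8%, 135.1%, 125.9% and 112.1% of the WT mean. The same 4 genes had their 2 highest mutant levels in libraries 2 and 4, at 284.6% to 306.3% for MES18, 179.3% to 189.03% for MES7, 197.9% to 258.8% for MES8 and 249.4% to 317.5% for MES1. Library 1 was also the mutant library with the most HTA9 and HTA11, at 63.6% and 58.0% of the WT mean, and libraries 2 and 4 had the least, at 15.6% and 17.3% for HTA9. The 5 other measured members had their lowest mutant level elsewhere: MES9 in library 2 at 83.3% of the WT mean, MES2 in library 3 at 106.02%, MES10 in library 3 at 111.5%, MES3 in library 3 at 105.5% and MES17 in library 4 at 85.2%. MES3 was highest in library 1 and MES9 and MES17 in library 3. The share of all genes with their lowest mutant level in library 1 was not counted, so nothing particular to these members is read from it. Over all genes, 757 passed with every library, 1246 without hta9 hta11 library 1 and 208 without hta9 hta11 library 4. A link to the HTA9 and HTA11 levels was not tested. Without hta9 hta11 libraries 1 and 3, the log2 fold changes were 1.56 for MES18, 0.88 for MES7, 1.19 for MES8 and 1.49 for MES1, which must be larger since these libraries held their 2 lowest mutant levels. For the other members they were 0.28 for MES2, 0.33 for MES10, 0.09 for MES3, 0.35 for MES9 and -0.18 for MES17.

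**Figure D5:**
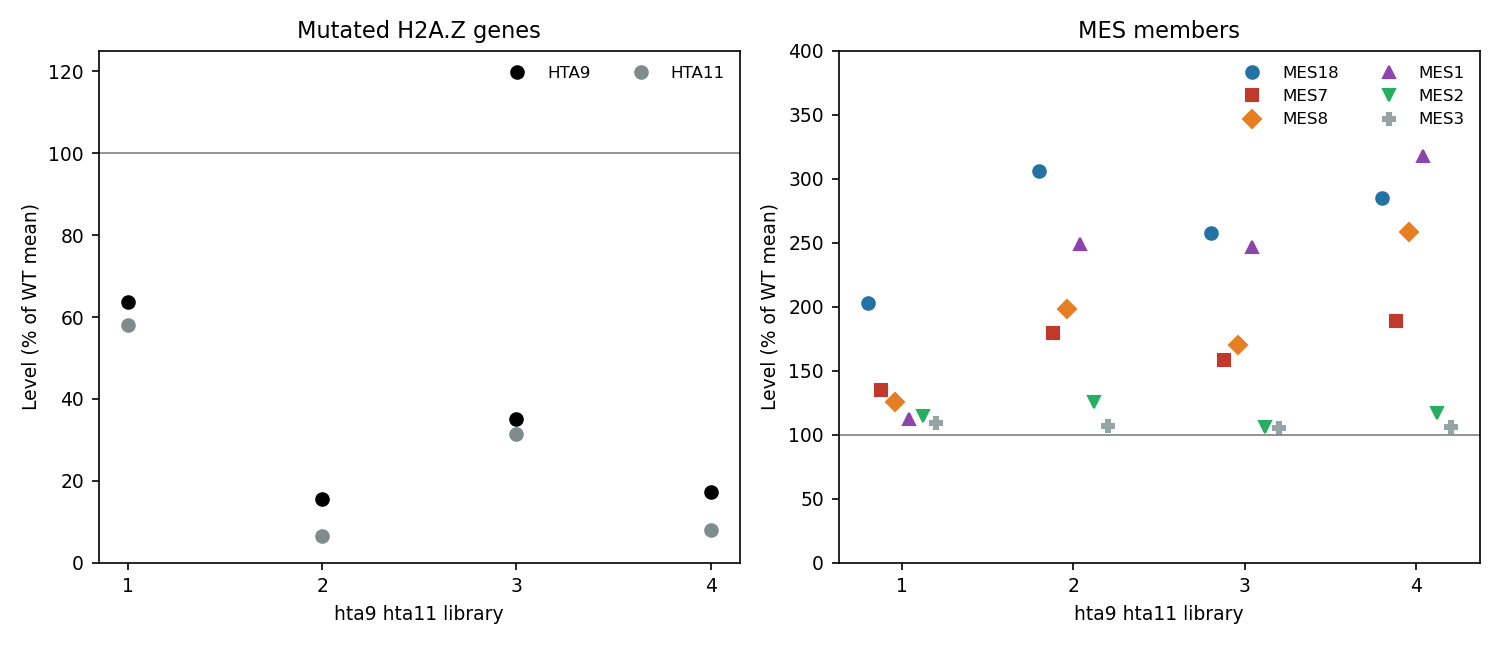
Level in each hta9 hta11 library as a percentage of the WT mean, for the mutated genes HTA9 and HTA11 (left) and for 6 MES members (right); the grey line marks the WT mean. Library 1 has the highest HTA9 and HTA11 points, at 63.6% and 58.0%, and the lowest MES18 point, at 202.8%.

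Some genes of the flower were also higher in the mutant rosettes. Of 5 floral genes, 4 passed as higher and none as lower, where 2.49% of all genes tested passed as higher. The list was written with earlier results of these data known, so nothing is read from this count. The summed level of the 5 was 7.13 to 14.8 CPM in hta9 hta11 and 2.61 to 3.09 CPM in WT. The log2 fold changes were 2.92 for SEP3, 2.64 for AP3, 2.18 for PI and 2.04 for AP1 (edgeR adjusted p = 0.000846, 0.00583, 0.0348 and 0.0159). AP1 failed with mutant library 4 or WT library 2 left out, and PI with mutant library 2 or 4 or WT library 2, 3 or 4 left out (adjusted p at most 0.061 for AP1 and 0.103 for PI). SEP3, a floral organ identity factor, had 4.33, 7.08, 4.06 and 7.18 CPM in hta9 hta11 libraries 1 to 4, against 0.6405 to 0.851 CPM in WT, so libraries 2 and 4 were again the highest. AG, another defining floral gene, had 0.708 ± 0.176 CPM in hta9 hta11 and 0.996 ± 0.146 CPM in WT and did not pass (edgeR adjusted p = 0.301). The part of floral tissue in the MES differences was not tested.

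The stretch of 250 bases before the annotated start is shown for MES7, MES8 and MES18, the members that passed, so that their start regions can be set side by side. Each is on the minus strand, read 5′ to 3′ from TAIR10.1, and ends at the base before the gene. Capitals mark the W-box core TTGAC, which WRKY factors bind, on either strand, and the TATAAA element on the given strand.
MES7 (chr2:10030444-10030693): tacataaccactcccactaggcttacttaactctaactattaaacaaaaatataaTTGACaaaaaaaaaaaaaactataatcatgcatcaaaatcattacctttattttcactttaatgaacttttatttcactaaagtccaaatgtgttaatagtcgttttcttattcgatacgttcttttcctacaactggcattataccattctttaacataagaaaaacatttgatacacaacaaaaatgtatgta
MES8 (chr2:10036049-10036298): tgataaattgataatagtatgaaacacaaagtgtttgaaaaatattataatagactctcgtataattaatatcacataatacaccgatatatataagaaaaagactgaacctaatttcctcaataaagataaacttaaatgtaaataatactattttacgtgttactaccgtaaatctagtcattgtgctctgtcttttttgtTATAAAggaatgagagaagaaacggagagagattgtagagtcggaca
MES18 (chr5:23576085-23576334): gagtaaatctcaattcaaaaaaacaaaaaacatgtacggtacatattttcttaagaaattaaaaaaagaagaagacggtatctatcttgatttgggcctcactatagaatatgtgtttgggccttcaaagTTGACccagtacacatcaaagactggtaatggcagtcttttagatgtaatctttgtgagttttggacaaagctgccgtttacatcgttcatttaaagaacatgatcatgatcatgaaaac

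MES7 and MES18 each held 1 W-box core and MES8 none, while MES8 held the only TATAAA among the 10 members. Among 27443 protein-coding genes of the table, 44.9% held TTGAC on either strand in the same window and 32.9% held TATAAA on the given strand. MES1, MES2 and MES4 held 2 W-box cores each and MES3 held 1. None of the 10 windows held the G-box CACGTG or the as-1 core TGACG on either strand, which 6.49% and 18.6% of all windows held. These matches are letters in a window, and binding was not measured.

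Most of the hormone genes around the MES reactions did not pass, and of all genes tested 3.74% did. Nothing is read from the counts of the hormone and chlorophyll lists, which are to be seen beside that share. Of 20 SABATH methyltransferases, which make the esters, 11 were tested and none passed in edgeR (3 with an unadjusted p under 0.05). FAMT, for farnesoic acid, had 75.8 ± 37.1 CPM in hta9 hta11 and 118.5 ± 71.7 CPM in WT (edgeR adjusted p = 0.477), and AT1G15125, a family member of no stated role here, had 36.1 ± 7.21 CPM in hta9 hta11 and 28.5 ± 3.54 CPM in WT (edgeR adjusted p = 0.259). The methyltransferases of the 3 hormones had log2 fold changes of 0.57 (SE 0.76) for BSMT1, which makes methyl salicylate, -0.06 (SE 0.24) for JMT, which makes methyl jasmonate, and 0.34 (SE 0.19) for IAMT1, which makes methyl indole-3-acetate. The 95% interval of BSMT1, -1.11 to 2.24, was the widest of the 3, and its level ran from 1.34 to 6.17 CPM in hta9 hta11 and from 0.199 to 5.12 CPM in WT.

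Of 10 genes of salicylic acid synthesis and modification, none passed in edgeR (1 with an unadjusted p under 0.05). UGT74F2, which glucosylates salicylic acid, had 33.01 ± 4.34 CPM in hta9 hta11 and 28.7 ± 11.8 CPM in WT, and DMR6, which hydroxylates it, had 22.6 ± 5.83 CPM in hta9 hta11 and 23.2 ± 3.30 CPM in WT. Of 9 tested genes of salicylic acid response and systemic resistance, 1 fell: NPR3, a salicylic acid receptor that represses immunity, had 33.2 ± 2.52 CPM in hta9 hta11 and 44.3 ± 4.61 CPM in WT (log2 fold change -0.42, SE 0.09; edgeR adjusted p = 0.0353). NPR3 passed when hta9 hta11 library 1 or WT library 2 was left out and failed for any other single library (highest adjusted p 0.116, for mutant library 4).

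Of 12 genes of jasmonate synthesis and turnover, none passed in edgeR (2 with an unadjusted p under 0.05), with LOX2, a lipoxygenase, at 2159 ± 490.6 CPM in hta9 hta11 and 2413 ± 1034 CPM in WT, and AOC2, an allene oxide cyclase, at 344.3 ± 93.5 CPM in hta9 hta11 and 548.7 ± 132.2 CPM in WT. Of 12 tested genes of auxin conjugation and hydrolysis, 1 rose: GH3.5, which conjugates amino acids to auxin and salicylic acid, had 9.26 ± 0.296 CPM in hta9 hta11 and 6.36 ± 1.14 CPM in WT (log2 fold change 0.55, SE 0.13; edgeR adjusted p = 0.0444). GH3.5 failed for every single library left out but WT library 4 (highest adjusted p 0.127, for mutant library 2), and with the replicate number as a block (0.0551). Of 11 genes of chlorophyll breakdown, where MES16 acts, 1 rose: SGR2, a regulator of chlorophyll degradation, had 1.39 ± 0.234 CPM in hta9 hta11 and 0.739 ± 0.0444 CPM in WT (log2 fold change 0.90, SE 0.19; edgeR adjusted p = 0.0293). SGR2 failed for hta9 hta11 library 3 or 4 or any single WT library left out (highest adjusted p 0.109, for mutant library 4), and with that block (0.0538). In this list 4 genes had positive and 7 had negative log2 fold changes. NYC1, of the same list, had 164.6 ± 22.8 CPM in hta9 hta11 and 235.3 ± 35.7 CPM in WT. Every mutant library was below every WT library, as in 5.07% of all genes tested. The log2 fold change of NYC1, -0.52 (SE 0.13), did not pass (edgeR adjusted p = 0.0538).

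Of 8 genes that respond quickly to touch and wounding, TCH4 and WRKY33 passed as lower and none as higher, where 1.25% of all genes tested passed as lower. Nothing is read from this count, since the list was written with earlier results of these data known. TCH4, a cell wall enzyme, had 29.3 ± 12.2 CPM in hta9 hta11 and 72.1 ± 22.5 CPM in WT (log2 fold change -1.29, SE 0.29; edgeR adjusted p = 0.0379). WRKY33, a defence factor, had 28.4 ± 2.09 CPM in hta9 hta11 and 38.4 ± 4.46 CPM in WT (log2 fold change -0.43, SE 0.10; edgeR adjusted p = 0.0372). TCH4 failed when mutant library 2, 3 or 4 or WT library 1, 3 or 4 was left out, and WRKY33 when mutant library 2, 3 or 4 or WT library 1, 2 or 4 was, with the highest adjusted p-values, 0.119 and 0.126, for mutant library 4.

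The genes with profiles most like those of MES18 and MES2 were taken by the mean absolute difference of centred log2 CPM over the 8 libraries, for the member with the smallest p and the one with the highest mean CPM. Such profiles include the difference between genotypes, so like log2 fold changes follow from the choice. For MES18 they were AT3G58875 (mean difference 0.06), AGL8 (0.09), the MADS-box gene also called FRUITFULL, and JP630 (0.10), with log2 fold changes of 1.44, 1.32 and 1.37. AT3G58875 and JP630 averaged only 0.61 and 0.60 CPM over the 8 libraries, against 69.3 CPM for MES18. For MES2 they were CDPK9, AGP31 and SMT1 (0.04 each), with log2 fold changes of 0.23, 0.15 and 0.17.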

How the data were processed

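The deposited table holds raw whole-number counts for each gene and library, and no column of values was left unused (0). The submitters' processing notes list the build TAIR10 and, among tools, fastp 0.23.2 for reads, the aligner HISAT2 2.2.1, SAMtools 1.17, limma and DESeq2. Per the labels' protocols the kit marks strand. How reads were counted is not given in the sources used here. The protocol text names 3 replicates per genotype, and 4 libraries of each are listed. Positions, exons and sequences are those of RefSeq for TAIR10.1.

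The members, lists and tests were chosen with earlier results of these data known. Genes were filtered with filterByExpr, scaled with TMM and tested with edgeR 4.0.16 (R 4.3.3; quasi-likelihood F test, 2-sided, Benjamini-Hochberg adjustment over 20214 genes, threshold 0.05) on the counts as the authors deposited them. The script was tested on simulated data. Standard errors and 95% intervals came from the log2 fold change, F and its degrees of freedom. CPM used TMM-scaled library sizes, and ± is the SD over 4 libraries. Within a genotype, libraries of every pair differed beyond sampling noise (chi-square per degree of freedom 12.5 to 45.3). The p-values measure the spread between pools of plants. Proteins were translated from annotated coding sequences and aligned globally with Biopython 1.88.

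Named were all members, other family genes, the H2A.Z genes, per list at most 4 genes that passed or else the 2 highest in mean CPM, nearest flanking genes, and the 3 most alike profiles of 2 members. Overlapping neighbours, BSMT1, JMT, IAMT1, AG, NYC1 and the noncoding RNAs were added after their values were seen. The alternatives tried were scaling by RLE or upper quartile, no filter and a filter of 1 CPM in 4 libraries, DESeq2 1.42.0, limma-voom (limma 3.58.1), the replicate number as a block, each library left out, hta9 hta11 libraries 1 and 3 left out, array counts summed, and other thresholds.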

Additional observations from a re-analysis of the deposited data

Results flagged for a closer look

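Of 36 groups of 4 libraries examined, over the tested MES family and H2A.Z genes, 3 held a library far from the other 3, and chance alone sets apart about 1 group in 20. MES12 stood at 21.01 CPM in hta9 hta11 library 3, against 17.6 CPM in the next library, and at 18.11 CPM in WT library 3, against 20.6 CPM in the next library. MES1 stood at 0.3973 CPM in WT library 1, against 0.323 CPM in the next library, from 14 counts.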

How the results depend on the processing

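MES18 passed under all 17 alternatives run, with log2 fold changes of 1.31 to 1.56. The number of genes past the threshold, 757, was 208 to 1246 when 1 library was left out (highest without hta9 hta11 library 1, lowest without its library 4), 1504 in DESeq2, 152 at an adjusted p under 0.01 and 309 with a change of at least 2-fold; the causes were not tested. Of the 9 tested members, DESeq2 called 5, adding MES1 and MES10, and limma-voom 2. MES5 passed in DESeq2 (adjusted p = 0.0187) and without WT library 3 (0.0491), and MES16 without hta9 hta11 library 1 or libraries 1 and 3 (0.0344), a setting under which MES1 also passed (0.0224). NPR3 and WRKY33 did not pass with upper-quartile scaling (adjusted p = 0.0521 and 0.0503), and NPR3, WRKY33, GH3.5 and SGR2 did not pass without hta9 hta11 libraries 1 and 3 (0.0723, 0.0863, 0.125 and 0.0961). The median log2 fold change was 0.48 to 0.88 for the array members, the low end with the filter of 1 CPM in 4 libraries, which removes MES1, and 0.28 to 0.46 for the dispersed members. Sign changes occurred only in genes near 0 when 1 library was left out: MES14 ran from -0.095 to 0.014, and the flanking genes AT2G23540 and AT2G23680 from -0.298 to 0.121 and from -0.170 to 0.101.

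Libraries of the same number deviated together for numbers 1 and 2 (correlations 0.40 and 0.35) but not for numbers 3 and 4 (-0.28 and -0.20). Only 2 of the 4 hta9 hta11 libraries, 1 and 2, deviated most like the WT library of their own number. With the replicate number as a block, 847 genes passed and the MES calls were the same: MES18 1.38, MES8 0.87 and MES7 0.74 on the log2 scale, the replicate block giving adjusted p-values of 0.00405, 0.0344 and 0.0229. Depth limits MES1 and MES9, at 10 to 40 counts in a library, and gives only an upper limit for MES4.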
